A study of Mus musculus with 12 samples.

Results

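The transcription factors that macrophages use to set their activation state were followed through 12 libraries of bone marrow-derived macrophages (BMDM). The genes were chosen by name, as factors tied to the polarization of macrophages, and are Pparg, Klf4, Myc, Cebpb, Cebpa, Maf, Bhlhe40, Spi1 and Mitf. All 9 were among the 14098 genes of the table and all 9 were among the 11194 genes that passed the filter on low values and were tested. BMDM were grown with L929-conditioned medium from the marrow of male and female C57Bl/6 mice of 8 to 10 weeks, either WT (Camkk2+/+) or KO (Camkk2-/-, lacking the calcium-dependent kinase CaMKK2), and were embedded in a hydrogel of collagen and hyaluronic acid. The 3 conditions were the soft gel, the soft gel with IL-4, and a stiff gel made by crosslinking with UV light and a photoinitiator, 24 h after the cells were embedded. The cells were cultured for a further 48 h, and all gels were digested with collagenase IV for 1 h before RNA was taken. Each of the 6 groups had 2 biological replicates. By the study's methods the stiff gel also held more collagen, so it differed from the soft gel in collagen content, UV light and photoinitiator as well as in stiffness, and these cannot be told apart here.

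IL-4 acts on macrophages through its receptor and the factor STAT6, which switches on genes of the alternatively activated state. Spi1 encodes PU.1, the ETS factor that opens macrophage enhancers, and the bZIP factors C/EBP alpha (Cebpa) and C/EBP beta (Cebpb) bind beside it. Pparg encodes the nuclear receptor PPAR gamma, which controls lipid handling, and Klf4 a zinc finger factor known as a partner of STAT6. Myc and Bhlhe40 encode basic helix-loop-helix factors, MYC driving growth and BHLHE40 acting mostly as a repressor. Maf encodes c-MAF, a bZIP factor of resident and IL-10-producing macrophages, and Mitf a helix-loop-helix factor of lysosome and osteoclast genes.

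Values are TPM, a measure of transcripts that is scaled for gene length and to a fixed total per library. A gene was called where limma, run on log2(TPM + 1) of all tested genes with 1 shared estimate of the spread, gave an adjusted p under 0.05. Camkk2, which checks the labels, was at 44.2 and 11.7 TPM in WT soft 1 and 2, at 30.5 and 29.8 with IL-4, and at 23.3 and 23.7 in the stiff gel. In the libraries labelled KO it was at 46.6 and 11.5 TPM in the soft gel, at 11.5 and 8.54 with IL-4 and at 37.7 and 10.0 in the stiff gel. The libraries labelled WT soft 2, KO soft 1 and KO stiff 1 thus went against their labels, and genotype differences below are between libraries as labelled. Over all tested genes, WT stiff 1 stood apart from the rest, with a root mean square log2 difference of 0.688 to 0.817 from the other 11 libraries and of 0.691 from its own replicate, against 0.293 to 0.390 between the replicates of the other groups. WT stiff 2 was closest to WT soft+IL-4 2, at 0.188, the smallest distance of all 66 pairs of libraries. WT soft 2 and KO soft 2 came next, at 0.195. The 6 closest pairs all joined libraries numbered 2 from different groups, at up to 0.264, closer than the replicates of any group. The 7 macrophage markers (Adgre1, Csf1r, Itgam, Cd68, Mertk, Fcgr1 and Lyz2) were present in every library, with a summed level of 50741 to 57172 TPM in the soft gel, 23417 to 25404 with IL-4, 23207 to 24558 in WT stiff and 45377 to 47959 in KO stiff, most of it Lyz2. The summed level of neutrophil markers was at most 26.6 TPM (8 of 10 listed), of dendritic cell markers 21.8 (7 of 7), of mast cell or basophil markers 1.97 (6 of 7), of B cell markers 3.38 (5 of 6) and of erythroid markers 0.466 (1 of 5). The defining markers of macrophages were thus present in every library, and those of the other types low, although 6 of the 7 macrophage markers fell with IL-4. The sequencing depth of each library is unknown, because TPM keeps no counts and the study's methods give only a nominal output. The share of listed genes at 0 was 10.7% to 13.4% in the 6 libraries numbered 1 and 5.90% to 7.54% in the 6 numbered 2, so that it split by replicate number in every group, and its part in the results was not tested.

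The genes lie, on GRCm38 with GENCODE vM21, at chr6:115360951-115490399 (Pparg, ENSMUSG00000000440), chr4:55527143-55532466 (Klf4, ENSMUSG00000003032), chr15:61985391-61990374 (Myc, ENSMUSG00000022346), chr2:167688915-167690418 (Cebpb, ENSMUSG00000056501), chr7:35119293-35121928 (Cebpa, ENSMUSG00000034957), chr8:115682942-115707794 (Maf, ENSMUSG00000055435), chr6:108660629-108666925 (Bhlhe40, ENSMUSG00000030103), chr2:91082390-91115756 (Spi1, ENSMUSG00000002111) and chr6:97807052-98021349 (Mitf, ENSMUSG00000035158). Klf4 and Maf are on the minus strand and the other 7 on the plus strand.

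Promoter sequences from RefSeq (GRCm38.p6) were at hand for 5 of the 9 genes, with 9 start sites in all. The 250 bases upstream of a start site are shown for Klf4, Pparg and Cebpa, which were higher with IL-4, and for Cebpb, the paralogue of Cebpa, which was not called. Each is written 5′ to 3′ on the strand of the gene, and capitals mark the matches to the searched motifs.
Klf4 (chr4:55532476-55532725, minus strand): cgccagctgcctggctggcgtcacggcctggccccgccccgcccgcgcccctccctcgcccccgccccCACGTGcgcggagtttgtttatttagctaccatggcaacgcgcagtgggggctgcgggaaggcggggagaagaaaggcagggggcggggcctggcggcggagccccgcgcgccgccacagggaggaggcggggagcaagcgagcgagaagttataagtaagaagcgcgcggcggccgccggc
Pparg (chr6:115421816-115422065, plus strand): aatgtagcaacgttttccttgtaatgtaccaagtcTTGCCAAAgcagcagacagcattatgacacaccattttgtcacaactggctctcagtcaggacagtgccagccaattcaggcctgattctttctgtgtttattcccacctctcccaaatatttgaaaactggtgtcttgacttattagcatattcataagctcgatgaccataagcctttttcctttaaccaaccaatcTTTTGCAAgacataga
Cebpa (chr7:35119043-35119292, plus strand): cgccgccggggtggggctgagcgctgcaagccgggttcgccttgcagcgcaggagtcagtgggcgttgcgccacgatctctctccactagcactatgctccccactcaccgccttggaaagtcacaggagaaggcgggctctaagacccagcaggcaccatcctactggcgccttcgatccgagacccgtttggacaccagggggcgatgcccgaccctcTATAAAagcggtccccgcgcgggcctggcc
Cebpb (chr2:167688665-167688914, plus strand): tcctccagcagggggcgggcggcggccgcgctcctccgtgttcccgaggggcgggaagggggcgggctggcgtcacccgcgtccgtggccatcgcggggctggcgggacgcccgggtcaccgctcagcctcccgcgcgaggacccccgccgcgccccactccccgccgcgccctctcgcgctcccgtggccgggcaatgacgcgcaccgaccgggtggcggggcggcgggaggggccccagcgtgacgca
The Klf4, Cebpa and Cebpb windows end upstream of the gene, while the Pparg window, that of the most downstream of its 3 start sites, lies in an intron of the longer transcripts. The search covered both strands for 9 motifs, namely the STAT6 site TTCNNNNGAA, the shorter STAT site TTCNNNGAA, the E-box CACGTG bound by MYC and MITF, the C/EBP motif TTGCNNAA, the PU.1 core GAGGAAGT, the KLF box CCACACCC, the AP-1 site TGANTCA, the NF-kB core GGGANNNTCC and the TATA box TATAAA. The E-box in the Klf4 window lies at positions −182 to −177 from the start site, and the same motif was present in 6.02% of all 32851 RefSeq promoter windows of this length. The Pparg window shown holds 2 C/EBP motifs, at positions −215 to −208 and −16 to −9, against 9.56% of all windows with at least 1. The most upstream Pparg window matched none of the 9 motifs, and the middle window only the TATA box. Which Pparg start site these cells use was not tested. The Cebpa window holds a TATA box at positions −30 to −25, found in 12.4% of all windows, and the Cebpb window matched none of the 9. The STAT6 site, in 5.85% of all windows, and the PU.1 core, in 2.44%, matched none of the windows of the 5 genes, which says nothing of sites outside these 250 bases. G and C made up 81.6% of the Cebpb window with 41 CpG, 74.0% of the Klf4 window with 32 CpG, 66.4% of the Cebpa window with 22 and 40.8% of the Pparg window with 2.

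The 9 factors were expressed at very different levels. Spi1 had the highest median over the 12 libraries, at 725.7 TPM, followed by Cebpb at 384, Cebpa at 216, Bhlhe40 at 113, Pparg at 67.4, Mitf at 50.8, Maf at 44.3, Klf4 at 21.3 and Myc at 10.8 TPM. By this median Spi1 was above 98.2% of the tested genes and Myc above 40.6%. Their spread over libraries ran in another order. The highest library was 7.48-fold over the lowest for Maf, 6.88-fold for Bhlhe40, 6.19-fold for Klf4, 3.51-fold for Myc, 2.46-fold for Pparg, 1.84-fold for Cebpb, 1.51-fold for Cebpa, 1.40-fold for Spi1 and 1.15-fold for Mitf. Spi1 and Mitf were thus nearly level, while Maf, Bhlhe40 and Klf4 spread widely.

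**Figure D1:**
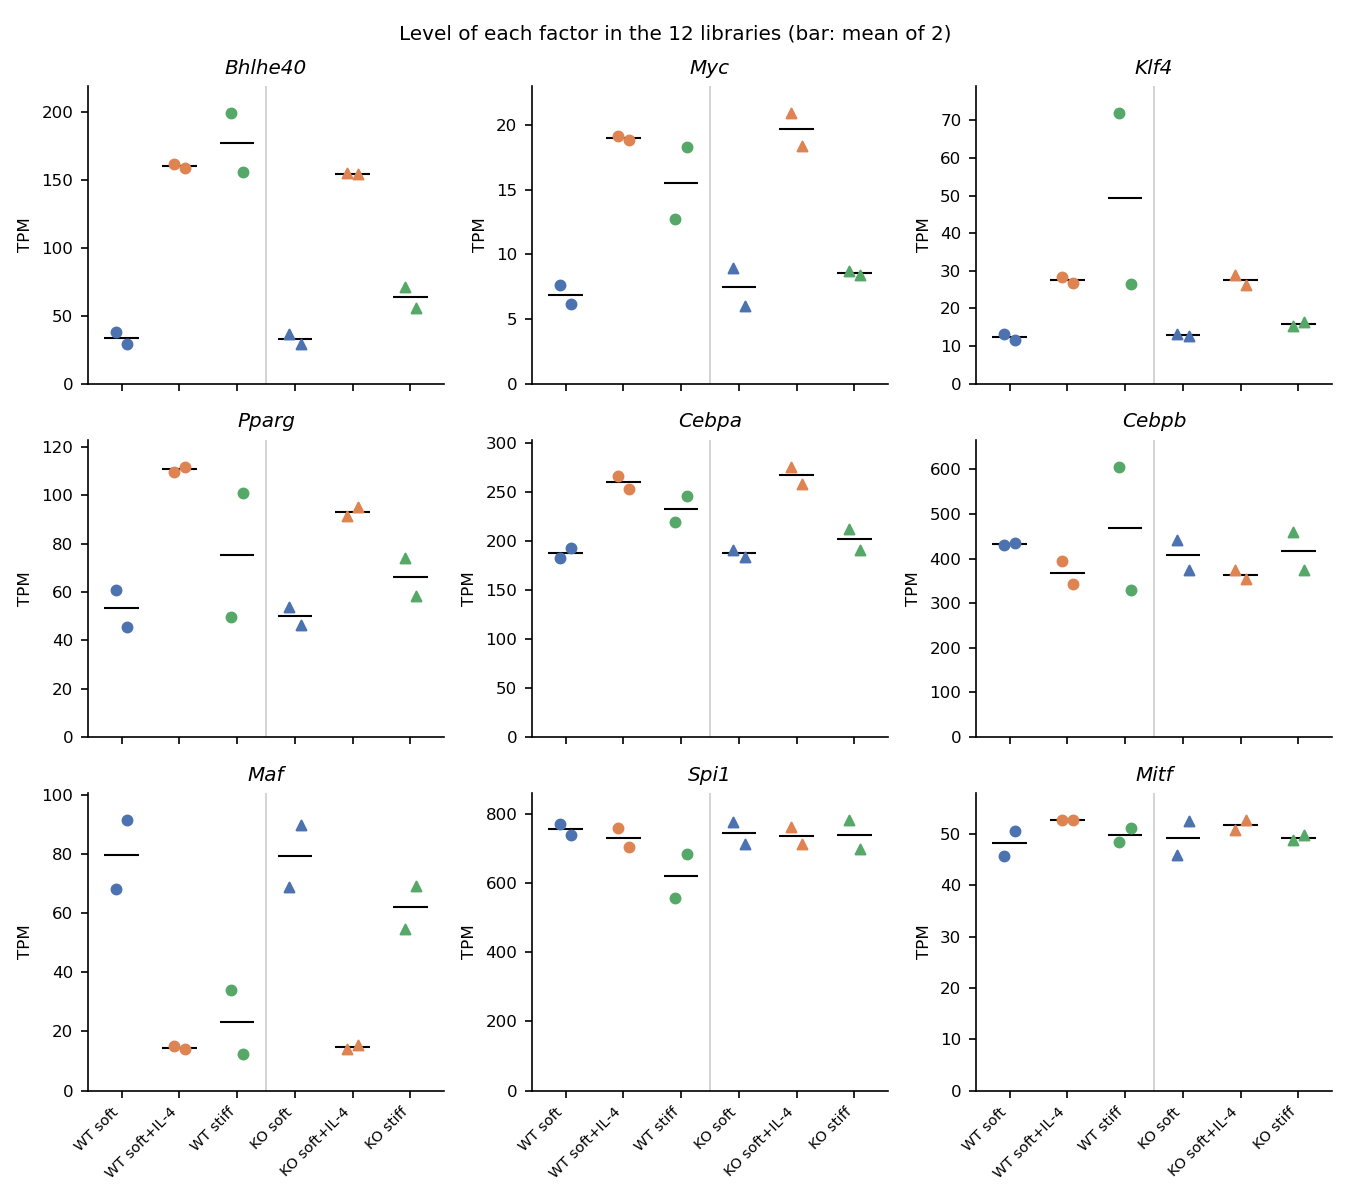
Level of each factor in TPM (y axis, from 0) in each library, with circles for WT, triangles for KO, and a bar at the mean of the 2 libraries of a group. Bhlhe40, Myc, Klf4, Pparg and Cebpa are higher and Maf lower in all 4 libraries with IL-4 than in the 4 of the soft gel, and the 2 WT stiff libraries lie far apart for Klf4, Pparg, Cebpb and Maf.

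Whether IL-4 shifts the factor set was asked in the soft gel in each genotype and averaged over both. Bhlhe40, Myc, Klf4, Pparg and Cebpa rose and Maf fell in the average, and Cebpb, Spi1 and Mitf were not called. In such bulk RNA, fewer cells that express a gene and less RNA per cell cannot be told apart. In all, 6 of 9 factors were called in the average, against 22.9% of all tested genes, 5 of 9 in WT alone against 10.7%, and 4 of 9 in KO alone against 10.3%. The median log2 fold change of the 9 was 0.49 in the average, beside −0.05 for all genes tested, and the median absolute change was 0.97 beside 0.20. Without the 3 libraries that went against their labels, the average log2 fold changes kept their sign. They were 2.21 for Bhlhe40, 1.39 for Myc, 1.04 for Klf4, 0.92 for Pparg, 0.52 for Cebpa and -2.34 for Maf. Pparg and Klf4 then lost their calls in the average, and within a genotype only Bhlhe40 in both and Myc in KO kept theirs. WT soft and KO soft then held 1 library each, and far fewer of all tested genes were called than in the full fit.

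Bhlhe40 had the largest rise of the 9. It was at 37.9 and 29.4 TPM in WT soft and at 162 and 159 with IL-4. In KO it was at 36.5 and 29.0 TPM in the soft gel and at 156 and 154 with IL-4. All 4 libraries with IL-4 were above all 4 without it and within a narrow band of each other. The mean was 4.76-fold higher in WT (log2 fold change 2.23, SE 0.17, adjusted p = 0.000103) and 4.73-fold higher in KO (log2 fold change 2.22, SE 0.17, adjusted p = 9.61e-05). Bhlhe41, which encodes the closest relative of BHLHE40, fell in the average (log2 fold change -0.70, adjusted p = 0.0121), from 21.1 to 24.5 TPM down to 12.6 to 14.9. The ratio of Bhlhe40 to Bhlhe41 was 1.36 to 1.57 in the 4 soft libraries and 10.7 to 12.9 in the 4 with IL-4, a pair picked after its values were seen.

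Myc was low in the soft gel, at 7.63 and 6.12 TPM in WT and 8.92 and 5.96 in KO. With IL-4 it reached 19.2 and 18.8 TPM in WT and 20.9 and 18.4 in KO. The groups did not overlap. The mean rose 2.76-fold in WT (log2 fold change 1.35, SE 0.21, adjusted p = 0.00368) and 2.64-fold in KO (log2 fold change 1.31, SE 0.21, adjusted p = 0.00407). Without KO soft+IL-4 1 the adjusted p in KO was 0.0503.

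Klf4 was at 13.2 and 11.6 TPM in WT soft and 28.4 and 26.8 with IL-4. The KO values were 13.2 and 12.6 TPM without IL-4 and 28.8 and 26.1 with it. All 4 libraries with IL-4 were above all 4 without it. Averaged over genotypes Klf4 rose 2.17-fold (log2 fold change 1.06, SE 0.24, adjusted p = 0.0119), while in WT alone (1.09, 95% interval 0.32 to 1.86, adjusted p = 0.0742) and in KO alone (1.03, 95% interval 0.27 to 1.80, adjusted p = 0.0935) it was not called. The spread that these tests share holds the gap between the WT stiff libraries, 71.9 and 26.6 TPM, and without WT stiff 1 Klf4 was called in both genotypes.

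Pparg was at 60.9 and 45.6 TPM in WT soft and at 109.6 and 112 with IL-4. In KO it was at 53.9 and 46.4 and at 91.4 and 95.2 TPM. The 2 KO libraries with IL-4 were below the 2 of WT, but the difference between genotypes was not called (-0.25, 95% interval -0.87 to 0.38, adjusted p = 1). Pparg rose 1.97-fold in the average (log2 fold change 0.97, SE 0.20, adjusted p = 0.00689) and 2.08-fold in WT (log2 fold change 1.06, SE 0.28, adjusted p = 0.0418). The call in WT was lost without any 1 of the 4 libraries compared (adjusted p from 0.0798 to 0.229), without a filter on low values (0.0642) and with median-of-ratios scaling (0.0587). In KO alone it was not called (0.89, 95% interval 0.26 to 1.51, adjusted p = 0.0813).

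The paired C/EBP factors differed in their values. Cebpa was at 182 and 193 TPM in WT soft and 266 and 253 with IL-4, and at 191 and 183 and 276 and 258 in KO. The rise was small and the groups did not overlap, 1.38-fold in WT (log2 fold change 0.47, SE 0.09, adjusted p = 0.0122) and 1.43-fold in KO (log2 fold change 0.51, SE 0.09, adjusted p = 0.00819). The call of Cebpa was lost in WT without any 1 of the 4 libraries compared (adjusted p from 0.0578 to 0.110) and in KO without KO soft 2 (0.0624) or KO soft+IL-4 1 (0.0908). Cebpb was the more abundant of the pair, at 430.5 and 434 TPM in WT soft, 394 and 344 in WT with IL-4, 443 and 374 in KO soft and 374 and 354 in KO with IL-4. The Cebpb groups touched in KO, and it was not called in the average (-0.20, 95% interval -0.57 to 0.18, adjusted p = 0.447). The ratio of Cebpa to Cebpb was 0.423 to 0.491 in the 4 soft libraries and 0.675 to 0.737 in the 4 with IL-4. In WT stiff it was 0.362 in replicate 1 and 0.746 in replicate 2, below and above all other libraries, and in KO stiff 0.462 and 0.511.

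Maf was the factor that fell. It was at 68.1 and 91.6 TPM in WT soft and at 15.0 and 13.9 with IL-4. The KO libraries held 69.1 and 89.8 TPM without IL-4 and 14.2 and 15.4 with it. The groups were far apart, the highest library with IL-4 lying below the lowest soft library. The mean was 5.52-fold lower in WT (log2 fold change -2.37, SE 0.37, adjusted p = 0.00388) and 5.37-fold lower in KO (log2 fold change -2.34, SE 0.37, adjusted p = 0.00403).

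**Figure D2:**
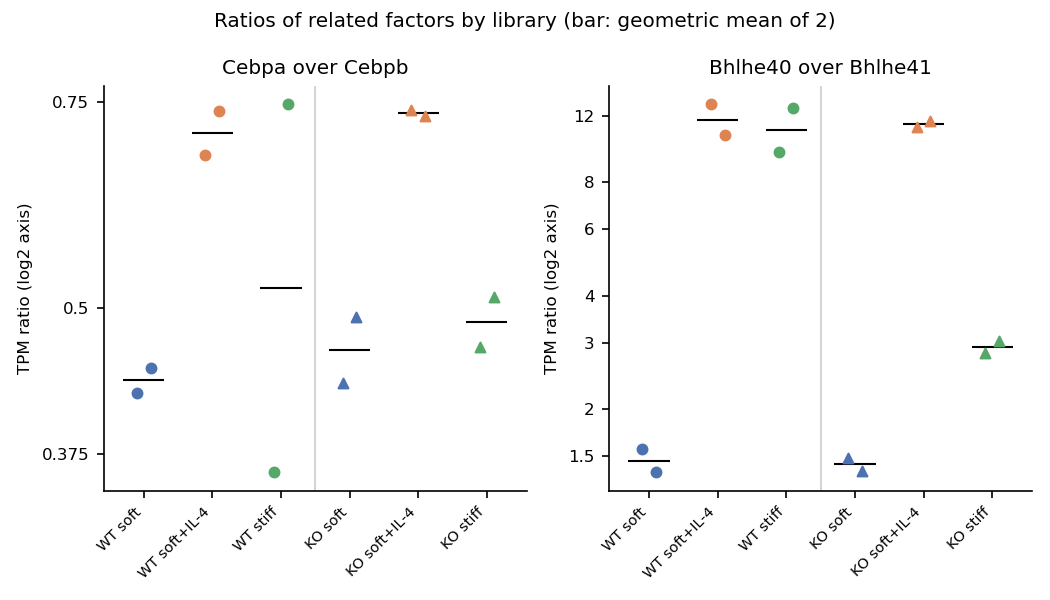
Ratio of TPM values of related factors (y axis, log2 scale) in each library, with circles for WT, triangles for KO, and a bar at the geometric mean of 2. The ratio of Bhlhe40 to Bhlhe41 is high with IL-4 and in both WT stiff libraries and low in soft and KO stiff, whereas Cebpa to Cebpb places the 2 WT stiff libraries at opposite ends.

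Spi1 and Mitf stayed within a small range in this contrast. Spi1 was at 771 and 738 TPM in WT soft, 758 and 703 in WT with IL-4, 776 and 713 in KO soft and 761 and 712 in KO with IL-4, and the groups overlapped. Mitf was at 45.8 and 50.7 TPM, 52.7 and 52.7 TPM, 46.0 and 52.5 TPM and 50.8 and 52.7 TPM in the same order. The average change of Spi1 was -0.03, 95% interval -0.22 to 0.15, adjusted p = 0.821, and that of Mitf 0.10, 95% interval -0.05 to 0.25, adjusted p = 0.327.

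The genotypes were compared within the soft gel and within IL-4. For both, limma called 0 of the 9 factors and 0% of all tested genes, with 0 of 9 factors at an unadjusted p under 0.05 in each, beside 130 genes in soft and 233 with IL-4. With only the libraries compared in the fit, limma again called 0 factors in each. With IL-4 it then called 64 of the 11194 genes, with Pparg and 964 genes at an unadjusted p under 0.05. In the soft gel it called 0 genes, with 0 factors and 174 genes at an unadjusted p under 0.05. The interaction of genotype with IL-4 gave 0 factors and 0% of genes, with 165 genes at an unadjusted p under 0.05. The widest intervals of the genotype difference in the soft gel were those of Maf (-0.00, 95% interval -0.83 to 0.82) and Klf4 (0.05, 95% interval -0.72 to 0.82). The narrowest were those of Cebpa (-0.00, 95% interval -0.21 to 0.21) and Mitf (0.03, 95% interval -0.19 to 0.24). These intervals are between libraries as labelled, of which WT soft 2 and KO soft 1 carry a Camkk2 level that goes against the label.

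Whether a stiff gel moves the same factors was asked in each genotype. In WT, Bhlhe40, Klf4 and Myc rose and Maf fell, which is 4 of 9 factors against 10.6% of all tested genes. In KO, limma called 0 of 9 against 0.0447% of all tested genes (5 genes), with 1 factor, Bhlhe40, and 295 genes at an unadjusted p under 0.05. Averaged over genotypes, Bhlhe40, Klf4, Myc and Maf were called, against 6.47% of genes, and Bhlhe40 alone was called without a filter, with only the libraries compared or without the 3 libraries that went against their labels. The WT calls rest on the spread shared with the other groups. With the 4 WT libraries alone in the fit, limma called 0 of the 9 and 0 of all genes (4 factors, the same as were called in the full fit, and 1374 genes were at an unadjusted p under 0.05), and the adjusted p of Bhlhe40 was then 0.0547. Without the library labelled WT soft 2, Klf4, Myc and Maf lost their calls, as Klf4 did without WT soft 1, and without all 3 libraries that went against their labels Bhlhe40 alone was called.

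Bhlhe40 in WT stiff was at 199.5 and 156 TPM, both above the 37.9 and 29.4 of WT soft, a 5.28-fold rise (log2 fold change 2.37, SE 0.17, adjusted p = 6.81e-05). Leaving out each of the 4 libraries in turn gave log2 fold changes of 2.19 to 2.54. In KO stiff it was at 71.3 and 56.0 TPM, above both KO soft libraries and below all libraries with IL-4. This rise was not called in the full fit (0.94, 95% interval 0.55 to 1.33, adjusted p = 0.207). It was called with replicate number in the fit as a block (adjusted p = 0.0469), and also without WT stiff 1 in the shared spread. The difference between genotypes in the stiff gel was called, with a mean 2.79-fold lower in KO (log2 fold change -1.47, SE 0.17, adjusted p = 0.00177). The interaction of genotype with stiffness, which sets the stiff response in KO against that in WT, was called for Bhlhe40 (log2 fold change -1.43, SE 0.25, adjusted p = 0.0301) and for no other factor, against 0.974% of all genes. With only the libraries compared in the fit, neither the difference in the stiff gel (adjusted p = 0.232) nor the interaction (adjusted p = 0.174) was called. Without the 3 libraries that went against their labels, the difference was called (log2 fold change -1.64, adjusted p = 0.0415) and the interaction was not (-1.26, adjusted p = 0.678). The interaction also lost its call without a filter on low values (adjusted p = 0.0511) and without any 1 of the 4 soft or 2 KO stiff libraries (adjusted p from 0.0548 to 0.151).

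Klf4 in WT stiff was at 71.9 and 26.6 TPM, and replicate 1 alone was above every other library while replicate 2 matched the libraries with IL-4. The rise over WT soft was 3.96-fold (log2 fold change 1.74, SE 0.34, adjusted p = 0.0118), and leaving out 1 library at a time gave 1.04 to 2.44 on the log2 scale. In KO stiff Klf4 was at 15.4 and 16.4 TPM, above the KO soft values of 13.2 and 12.6 but not called (0.28, 95% interval -0.49 to 1.05, adjusted p = 1). In the stiff gel the mean was 3.10-fold lower in KO than in WT (log2 fold change -1.41, SE 0.34, adjusted p = 0.0488), and the interaction was not called (log2 difference -1.46, 95% interval -2.55 to -0.37, adjusted p = 0.267).

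Myc reached 12.7 and 18.3 TPM in WT stiff, a rise of 2.26-fold over WT soft (log2 fold change 1.05, SE 0.21, adjusted p = 0.012). In KO stiff it was at 8.67 and 8.43 TPM, inside the range of KO soft (0.20, 95% interval -0.27 to 0.67, adjusted p = 1). The genotypes did not overlap in the stiff gel, yet the difference was not called (-0.77, 95% interval -1.23 to -0.30, adjusted p = 0.0714).

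Maf in WT stiff was at 33.9 and 12.2 TPM, both below WT soft, with a mean 3.46-fold lower (log2 fold change -1.90, SE 0.37, adjusted p = 0.0113). Replicate 2 was the lowest of all 12 libraries. KO stiff held 54.7 and 69.4 TPM, where replicate 2 lay inside the range of KO soft (-0.35, 95% interval -1.18 to 0.48, adjusted p = 1). In the stiff gel Maf was 2.69-fold higher in KO than in WT (log2 fold change 1.54, SE 0.37, adjusted p = 0.0457), and the interaction was not called (log2 difference 1.55, 95% interval 0.38 to 2.72, adjusted p = 0.276).

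The remaining factors showed where the WT stiff libraries parted. Pparg was at 49.5 and 101 TPM in the 2 WT stiff libraries, so that replicate 1 lay in the range of WT soft and replicate 2 near IL-4, and was not called (0.42, 95% interval -0.21 to 1.05, adjusted p = 0.419). Without WT stiff 1, Pparg was called, and without WT stiff 2 the direction turned, the log2 fold changes running over -0.09 to 0.93. Cebpb was at 606 and 330.0 TPM in WT stiff, the highest and the lowest of the 12 libraries, and was not called (0.05, 95% interval -0.48 to 0.58, adjusted p = 0.93). Cebpa was at 219 and 246 TPM, above both WT soft libraries but not called (0.31, 95% interval 0.10 to 0.52, adjusted p = 0.0679). Spi1 was at 557 and 683 TPM, with replicate 1 the lowest of the 12 libraries (-0.29, 95% interval -0.55 to -0.03, adjusted p = 0.162), and Mitf at 48.4 and 51.3 TPM (0.05, 95% interval -0.17 to 0.26, adjusted p = 0.821). In KO stiff, Pparg was at 73.9 and 58.4 TPM, Cebpb at 459 and 374, Cebpa at 212 and 191, Spi1 at 782 and 698 and Mitf at 48.7 and 49.9, none of them called against KO soft.

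**Figure D3:**
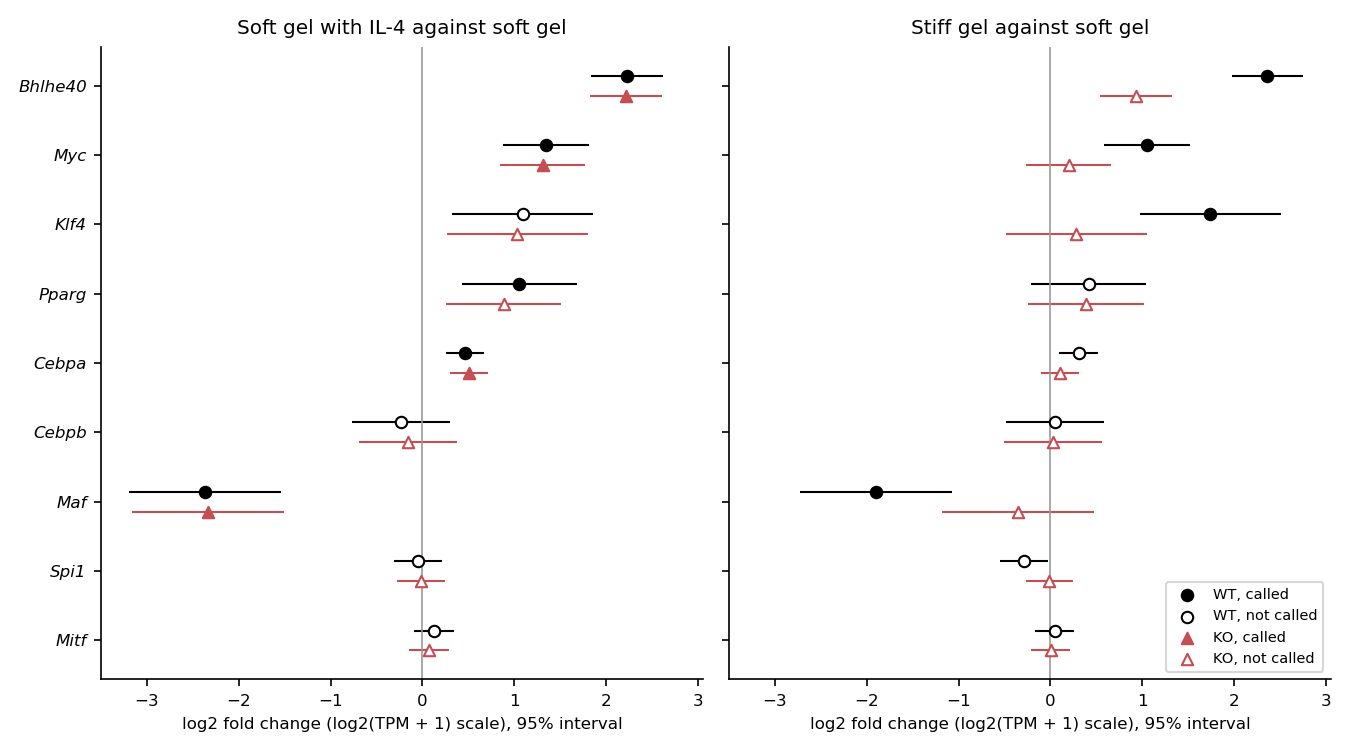
Log2 fold change of each factor on the log2(TPM + 1) scale with its 95% interval, for IL-4 (left) and the stiff gel (right) against the soft gel, in WT (black circles) and KO (red triangles), with filled symbols for adjusted p under 0.05. The WT and KO symbols lie side by side for IL-4, and for the stiff gel Bhlhe40, Klf4, Myc and Maf lie farther from 0 in WT.

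The stiff gel was also set against IL-4 within each genotype. In WT, limma called 0 of the 9 factors and 0% of genes, with 1 factor, Pparg, and 557 genes at an unadjusted p under 0.05. The closeness of WT stiff 2 to the IL-4 libraries and the distance of WT stiff 1 both enter this comparison. Leaving out 1 library at a time moved Klf4, Maf and Pparg most. Their log2 fold changes ran over -0.05 to 1.35, -0.22 to 1.17 and -1.15 to -0.13. The values farthest from 0 were those without WT stiff 2, where WT stiff 1 alone stood for the group. In KO, 4 of 9 factors were called against 4.03% of genes. Bhlhe40 was 2.43-fold lower in the stiff gel than with IL-4 (log2 fold change -1.28, SE 0.17, adjusted p = 0.00385), Myc 2.30-fold lower (log2 fold change -1.11, SE 0.21, adjusted p = 0.0175) and Cebpa 1.32-fold lower (log2 fold change -0.40, SE 0.09, adjusted p = 0.044), while Maf was 4.19-fold higher (log2 fold change 1.99, SE 0.37, adjusted p = 0.0169). Between genotypes in the stiff gel 3 of 9 factors were called (Bhlhe40, Klf4 and Maf), against 4.93% of genes. The calls of Klf4 and Maf between genotypes were lost without either KO stiff library, without a filter and with only the 4 stiff libraries in the fit. Without the 3 libraries that went against their labels, 0 of the 4 calls in KO between stiff and IL-4 remained. Without any 1 of the 4 KO libraries in that contrast the calls of Myc (adjusted p from 0.0939 to 0.174), Maf (0.0865 to 0.151) and Cebpa (0.121 to 0.326) were lost, and that of Cebpa also with median-of-ratios scaling (0.0745).

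By group mean, IL-4 stood at the top and soft at the bottom for Pparg, Myc and Cebpa, in the order IL-4, WT stiff, KO stiff, soft. The 2 IL-4 groups were neighbours that did not overlap for Pparg and overlapped for Cebpa and Myc, and the soft groups of WT and KO overlapped in all 3. For Bhlhe40 and Klf4 the order was WT stiff, IL-4, KO stiff, soft. WT stiff 2 lay among the IL-4 libraries for Klf4, while for Bhlhe40 it lay between the IL-4 groups of WT and KO. For Maf the order ran the other way, with soft highest, then KO stiff, WT stiff and IL-4. KO stiff and KO soft overlapped for Maf, as did WT stiff and IL-4. KO stiff overlapped a soft group for Pparg, Myc and Cebpa and did not for Bhlhe40 and Klf4. For Pparg the WT stiff libraries, at 49.5 and 101 TPM, spanned KO stiff and KO with IL-4 and reached into WT soft. WT stiff thus did not differ from these groups beyond its spread. The mean of Cebpb was highest and that of Spi1 lowest in WT stiff, and the 6 groups of Mitf had means between 48.2 and 52.7 TPM.

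Genes known as direct or likely targets of each factor were taken as lists and read beside the level of the factor. In the average with IL-4, 9.84% of all tested genes were called higher and 13.1% lower, and in WT stiff 4.29% higher and 6.31% lower, and the counts of a list are to be read against these shares. Of 12 tested genes linked to PPAR gamma, 4 rose and 0 fell in the average with IL-4 (22.9% of all genes were called), among them Cd36, a lipid scavenger receptor (log2 fold change 1.07, adjusted p = 0.00889), Abcg1, a sterol exporter (0.75, adjusted p = 0.00182), and Acadl, of fatty acid oxidation (0.38, adjusted p = 0.0192). In WT stiff 0 of these 12 were called. Cd36 was at 412 and 909 TPM in the 2 WT stiff libraries, beside 402 and 507 in WT soft and 814 and 890.0 with IL-4, the same split as Pparg. Without WT stiff 1, 2 of the 12 rose, which is 16.7% beside 14.7% of all genes.

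Of 19 tested MYC targets, 9 rose and 0 fell with IL-4, against the 9.84% of all genes called higher. They included Srm, spermidine synthase (1.02, adjusted p = 0.00771), Apex1, a DNA repair enzyme (0.98, adjusted p = 0.000363), and Nop16, of ribosome assembly (0.61, adjusted p = 0.000935). Their median log2 fold change was 0.31, beside −0.05 for all genes. In WT stiff 3 rose, Odc1, ornithine decarboxylase (0.57, adjusted p = 0.0313), Nop16 (0.53, adjusted p = 0.0216) and Pa2g4 (0.37, adjusted p = 0.0417), against 4.29% of all genes called higher. Without WT stiff 1 this was 7, with 14.7% of all genes called in either direction.

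Spi1 was not called with IL-4. Of 14 genes that PU.1 is known to control, 8 fell, 0 rose and 6 were not called, against 13.1% of all genes called lower, and among the falls were Fcgr1, the high-affinity Fc gamma receptor (-2.42, adjusted p = 1.36e-06), Cd14, the co-receptor for lipopolysaccharide (-2.31, adjusted p = 0.000202), and Cybb, of the phagocyte oxidase (-1.26, adjusted p = 0.000174). In WT stiff 7 fell, 6 were not called, and 1, Tlr4, the receptor for lipopolysaccharide, rose (0.59, adjusted p = 0.0473). The Fcgr1 libraries read 18.7 and 22.6 TPM in WT stiff, 113 and 92.1 in KO stiff and 133 and 114 in WT soft, and in the stiff gel Fcgr1 was called higher in KO (2.25, adjusted p = 0.000287). This list shares 6 genes with the macrophage markers, so the lower marker sum with IL-4 is in part the same genes.

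Of 11 tested C/EBP targets, 1 rose, 4 fell and 6 were not called with IL-4, beside 22.9% of all genes called. Arg1, which encodes arginase, rose (log2 fold change 4.87, adjusted p = 0.0303), and the falls were led by Il1b, the inflammatory cytokine (-1.63, adjusted p = 0.00139), Saa3 (-1.38, adjusted p = 0.0327) and Lyz2, lysozyme (-1.25, adjusted p = 3.74e-05). The Arg1 values were 8850.2 and 42.6 TPM in WT stiff, beside 242 and 40.3 in WT with IL-4, so that 1 library sets its level in the stiff gel. Of 12 targets of MAF, 6 fell and 1 rose with IL-4, beside 13.1% of all genes called lower and 9.84% higher. Cx3cr1, the fractalkine receptor (-3.81, adjusted p = 2.61e-05), Stab1, a scavenger receptor (-2.00, adjusted p = 0.000781), and Il10, present at under 4 TPM (-1.13, adjusted p = 0.0372), led the falls, and Fcrls rose (1.60, adjusted p = 0.00114). Their median was −0.74, and in WT stiff 3 fell and 1 rose.

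MITF and TFE targets went both ways, with 3 of 15 higher, 5 lower and 7 not called with IL-4, beside 9.84% and 13.1% of all genes. Acp5, tartrate-resistant phosphatase (1.14, adjusted p = 0.00187), and the proton pump subunits Atp6v0d2 (1.06, adjusted p = 9.59e-05) and Atp6v1h (0.48, adjusted p = 0.00712) rose, and Flcn (-0.35) and Ctsd (-0.34) were among those that fell, by small amounts. Of 6 tested osteoclast markers, 2, Acp5 and Ocstamp (4.17, adjusted p = 0.000645), rose with IL-4, 1, Nfatc1, the factor of osteoclast formation, fell (-0.55, adjusted p = 0.0014), and 3 were not called. The summed level of the markers (7 of 8 listed) was 117 to 180 TPM in soft, 340 to 380 with IL-4, 282 to 355 in WT stiff and 163 to 217 in KO stiff, with Mmp9 under 2 TPM in every library. Dcstamp and Ocstamp, fusion genes, made up most of the sum with IL-4, while Nfatc1 was at 19.0 to 21.8 TPM in soft and 12.9 to 14.4 with IL-4. Their part in the result was not tested.

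Relatives of the 9 factors and other factors of the response were read in the same way. Of 18 factors linked to IL-4, 6 rose and 5 fell in the average, beside 9.84% and 13.1% of all genes. Irf4 (2.59, adjusted p = 6.63e-07), Batf3 (2.44, adjusted p = 0.000748) and Nfil3 (1.84, adjusted p = 0.000153) rose most, and Nr4a1 (-1.20, adjusted p = 0.034), Bcl6 (-0.50, adjusted p = 0.0012) and Ppard (-0.45, adjusted p = 0.0321) fell most. Irf4, an interferon regulatory factor of the alternative state, was at 4.60 and 3.99 TPM in WT soft, 24.2 and 29.4 in WT stiff and 10.2 and 10.5 in KO stiff, and was the only one of these 18 called in KO stiff against soft (1.15, adjusted p = 0.016). Of 18 factors of the inflammatory response, 9 fell and 1 rose with IL-4, beside 13.1% and 9.84% of all genes, with Nfkbiz (-1.94, adjusted p = 4.47e-05) and Irf7 (-1.77, adjusted p = 0.00673) falling most and Batf rising (0.59, adjusted p = 0.0498). In WT stiff 7 fell and 0 rose. Irf7 and Nfkbiz were higher in KO stiff than in WT stiff, a contrast in which 6 of the 18 were called higher and 0 lower. Of all 11194 tested genes, 386 were called higher and 166 lower in that contrast.

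Of 29 tested relatives and dimer partners of the 9 factors, 2 rose, 7 fell and 20 were not called with IL-4. Together 31.0% were called, not far from the 22.9% of all genes. Tfec, a relative of MITF, rose (1.41, adjusted p = 6.56e-06) while Mitf did not, from 13.9 to 17.9 TPM in soft to 41.9 to 45.3 with IL-4. Cebpd, a relative of the C/EBP factors, fell (-1.32, adjusted p = 0.000511), as did Irf8, a partner of PU.1 (-0.58, adjusted p = 0.000113). Jun rose (0.68, adjusted p = 0.00483). In WT stiff Tfec (1.36, adjusted p = 0.000176) and Jun (0.91, adjusted p = 0.0128) rose and Cebpd (-1.20, adjusted p = 0.0115) and Irf8 (-0.67, adjusted p = 0.000844) were among 4 that fell. Of 15 tested IL-4 activation markers, 14 rose and 0 fell with IL-4 and in WT stiff, and 1 rose in KO stiff. The count in KO stiff was larger without WT stiff 1 in the shared spread, but the share of all genes in that setting is not given here. The median log2 fold change of these markers was 3.98 with IL-4, 3.80 in WT stiff and 2.18 in KO stiff, beside −0.05, 0.02 and −0.01 for all genes. Several of these markers, such as Fn1, Itgb3, Ccl22 and Retnla, are already reported by the paper as raised by IL-4 and the stiff gel. That report rests on the same libraries, so the marker counts with IL-4 and in WT stiff are not an independent test. Immediate early genes, which digestion of the gel can induce, had 4 of 12 higher and 3 lower with IL-4, beside 9.84% and 13.1% of all genes, with Ier3 (2.09), Egr2 (1.41) and Atf3 (0.70) rising most and Nr4a1 (-1.20), Fos (-1.01) and Ier2 (-0.69) falling most. All gels were digested, and the part of digestion in the levels of Myc and Klf4, which such treatment can also induce, was not tested. Without the 3 libraries whose Camkk2 went against the label, the average with IL-4 called 7.14% of all genes, and the counts became 0 of 12 for PPAR gamma, 2 higher of 19 for MYC, 6 lower of 14 for PU.1, 2 lower of 11 for C/EBP, 1 higher and 4 lower of 12 for MAF, 2 higher of 15 for MITF and TFE, 6 higher and 1 lower of 18 factors linked to IL-4, 3 lower of 18 inflammatory factors, 1 higher and 3 lower of 29 relatives, 2 in each direction of 12 immediate early genes and 11 higher of 15 IL-4 activation markers.

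**Figure D4:**
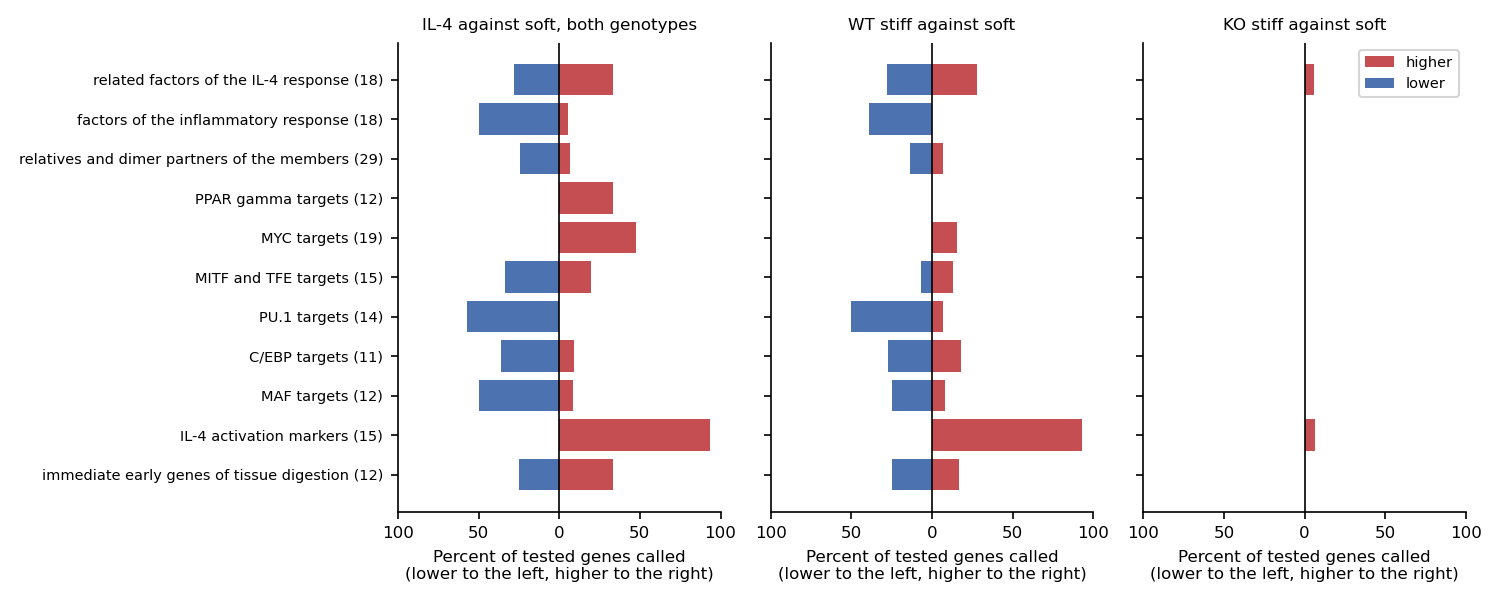
Percent of the tested genes of each list (number in brackets) called higher (red, right) or lower (blue, left) at adjusted p under 0.05, for IL-4 averaged over genotypes, WT stiff and KO stiff, each against the soft gel. In KO stiff 1 of 18 factors linked to IL-4 and 1 of 15 IL-4 activation markers are called, and 0 genes of the other lists.

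Across the 12 libraries the 9 factors varied together to different degrees. Correlations among the factors called with IL-4 describe in part the groups that IL-4 sets apart, which does not hold for Cebpb, Spi1 and Mitf. On log2(TPM + 1), Pearson's r of Myc was −0.99 with Maf, 0.96 with Cebpa and 0.92 with Bhlhe40, and Maf stood at −0.96 with Cebpa. Klf4 and Bhlhe40 had 0.89, Klf4 and Spi1 −0.75, and Cebpb and Bhlhe40 −0.09. WT stiff 1 held the highest Klf4, Bhlhe40 and Cebpb and the lowest Spi1 of the 12 libraries, and correlations without it were not computed. The genes with the most similar pattern, out of 6921 with a mean of at least 10 TPM, were Tmem26, Flt1 and Pdcd1lg2 for Bhlhe40 (r from 0.992 to 0.993), Itga6, Inpp5d and Nlrp3 for Maf (0.994 to 0.996), Lgals3, Inpp5a and Mettl7a1 for Myc (0.987 to 0.989) and Lrpap1, Gda and Galnt6 for Klf4 (0.986 to 0.991). For Pparg they were Tm4sf19, Stac2 and Cct6a (0.983 to 0.988), for Cebpa Jund, Cotl1 and Plxnd1 (0.984 to 0.986), for Cebpb Nono, Neurl4 and Ehmt2 (0.943 to 0.958), for Spi1 Rpusd4, Taok3 and Ier5 (0.945 to 0.958) and for Mitf Atp2a2 and Golga7 (0.917 to 0.934).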

How the data were processed

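RNA-seq of 12 libraries was analysed from 1 deposited table of TPM values. The authors describe poly(A) libraries, snakePipes, STAR on mm10, featureCounts and DESeq, while the submitters' processing notes name Trim Galore 0.6.7 and Salmon 1.4.0, so how the deposited TPM values were made from reads is not settled by the sources used here. TPM divides by gene length and scales each library to a fixed total, so counting error and depth cannot be given, and no count model was used. Groups were taken from the sample titles. No columns were left out.

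Genes that reached 1 TPM in 2 or more libraries were tested with limma 3.58.1 (R 4.3.3) on log2(TPM + 1), with 6 group means, 13 comparisons and eBayes with a trend. Adjusted p is Benjamini-Hochberg over all 11194 genes, two-sided, called under 0.05. Folds are ratios of mean TPM, and log2 fold changes understate the change of low genes. The scripts were tested on simulated data. The factors, the lists of related genes and the tests were chosen with earlier results of these data known. Genes named are the 9 factors, the 3 called genes of a list with the largest rise and fall, the 3 genes most correlated with each factor, and Camkk2. Some genes that this rule names are not reported here. Other genes named were picked after their values were seen. Replicate numbers were not used to pair the samples in the main fit, although same-numbered libraries deviated partly alike in WT soft, KO soft and KO stiff. Alternatives were another pseudocount (0.1), no filter, median-of-ratios scaling, a fit of only the libraries compared, a replicate block, a fold threshold, and leaving out libraries. Gene positions are from GENCODE vM21. Figures used matplotlib.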

Additional observations from a re-analysis of the deposited data

Results flagged for a closer look

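The interaction of genotype with stiffness for Bhlhe40 drew attention because the difference between the 2 genotypes was itself called. The rise in the stiff gel was smaller in KO than in WT with a log2 difference of −1.43, KO minus WT (SE 0.25; limma gave an adjusted p of 0.0301 over all genes). The value ran from −1.61 to −1.25 when 1 library was left out at a time, with adjusted p from 0.00209 to 0.151, and over the other alternatives adjusted p ran from 0.0116 to 0.678. It lost its call without any 1 of the soft libraries or of the KO stiff libraries, and the library labelled KO stiff 1 goes against its label by Camkk2. The level of Bhlhe40 was 71.3 and 56.0 TPM in the KO stiff libraries and 199.5 and 156 TPM in the WT stiff libraries.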

How the results depend on the processing

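The number of the 9 factors called was recomputed under each alternative. The counts that moved by over 1.5 times were these. Without a filter on low values, the count was 1 for KO against WT in the stiff gel (3 in the full fit), 0 for the interaction of genotype with stiffness (1) and 1 for the stiff gel averaged over genotypes (4). With only the libraries compared in the fit it was 0 for WT stiff against soft (4), 0 for KO against WT in the stiff gel, 0 for the interaction and 1 for the stiff average. Without the 3 libraries whose Camkk2 goes against the label it was 1 for IL-4 in WT (5), 2 for IL-4 in KO (4), 1 for WT stiff against soft, 0 for KO stiff against IL-4 (4), 1 for KO against WT in the stiff gel, 0 for the interaction and 1 for the stiff average. The calls over all tested genes moved too. With only the libraries compared they were 0 for WT stiff against soft (1186 in the full fit), KO against WT in the stiff gel (552) and the interaction (109). For the stiff average they were 279 (724). Without a filter they were 471 for KO against WT in the stiff gel, 95 for the interaction and 637 for the stiff average. Without the 3 libraries, far fewer of all tested genes were called in the comparisons listed. The cause of these changes was not tested, although fewer samples entered the last 2 settings.

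The replicate block was an alternative only, since deviations of same-numbered libraries correlated at −0.0526 to 0.314 over 15 pairs of groups, 3 of them over 0.1. These 3 were the pairs among WT soft, KO soft and KO stiff (0.283 to 0.314). In the same groups Camkk2 was far higher in replicate 1 than in replicate 2. What the same-numbered libraries of these groups share was not tested. With the replicate block the count for KO stiff against soft was 1 (0 without it), Bhlhe40 at an adjusted p of 0.0469, and 27 of 31 called values kept their call. The 4 lost were Pparg with IL-4 in WT, Cebpa in KO stiff against IL-4, and Maf in KO against WT in the stiff gel and in the stiff average.

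Leaving out 1 library at a time gave 3 to 6 called factors for IL-4 in WT, 2 to 6 for IL-4 in KO, 1 to 6 for WT stiff against soft, 0 to 5 for WT stiff against IL-4, 0 to 1 for KO stiff against soft, 1 to 5 for KO stiff against IL-4, 1 to 5 for KO against WT in the stiff gel, 0 to 3 for the interaction with stiffness and 1 to 6 for the stiff average. The rises came without WT stiff 1 or WT stiff 2, and leaving out WT stiff 1 where it is not compared was chosen after seeing the data. A group left with 1 library was assumed to vary like the others.

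Of the 31 values called, 31 were kept with a pseudocount of 0.1, 28 with median-of-ratios scaling, 25 when a log2 change of 1 or more in size was also asked, 24 without a filter, 20 with only the libraries compared and 10 without the 3 libraries. No called value changed sign under any alternative run. Uncalled values did so in 107 of 1099 pairings of a value with an alternative. The unknown depth limits the precision that can be given for Myc and Klf4, the least abundant of the factors.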
